A study of Mus musculus with 9 samples.

Results

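A set of 10 genes of glycolysis and of the response to low oxygen were followed in mouse embryonic stem cells treated to deplete Suz12 and then to let it return: Slc2a1, Hk2, Pfkl, Aldoa, Pgk1, Ldha, Pdk1, Bnip3, Egln3 and Vegfa. They were chosen by name, with earlier results of these data known. Their symbols were matched to the gene identifiers of the count tables, which found 10 of 10 among 48440 genes. All 10 passed the filter on low counts, as did 20838 genes in all. The cells are J1 embryonic stem cells in which Suz12, which Polycomb repressive complex 2 (PRC2) needs for its activity, carries an auxin-inducible degron (Suz12-AID). PRC2 methylates histone H3 at lysine 27 on repressed genes, and the degron leads to destruction of the tagged protein when the plant hormone auxin is present.

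The 3 groups hold 3 biological replicates each. Mock cells received no auxin, Auxin cells received 50 µM indole-3-acetic acid for 96 h, and Reintroduction cells had the hormone washed out for 4.5 h after that treatment. Cells of every group carried the Suz12-AID allele and grew in high-glucose medium with serum, LIF and the inhibitors PD0325901 and CHIR99021, which inhibit MEK and GSK3. No untagged cells with auxin are among these groups, so an effect of the hormone itself cannot be told apart from the loss of the protein. Nor is there a group that went through the medium change of the washout without the return of Suz12. The labels give no oxygen level for any group. Polyadenylated RNA was sequenced as paired ends, and the tables hold 44341283 to 113931419 counts per library. Levels below are normalised read counts in CPM, that is, scaled to library size with TMM factors, or, between genes, the same per kilobase of exon (RPKM).

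Glycolysis splits glucose into pyruvate in the cytosol. Slc2a1 (GLUT1) brings glucose into the cell, Hk2 phosphorylates it, Pfkl is a subunit of the committed step, Aldoa cleaves the sugar, Pgk1 makes ATP, and Ldha reduces pyruvate to lactate. When oxygen is short, prolyl hydroxylases no longer mark the HIF alpha subunits for destruction through VHL, and HIF binds hypoxia response elements, whose core is ACGTG or GCGTG. Known HIF targets include the genes above as well as Pdk1, a kinase that shuts pyruvate dehydrogenase, Bnip3, a mitophagy receptor, Egln3, one of the prolyl hydroxylases, and Vegfa, the growth factor of blood vessels. Naive embryonic stem cells use both glycolysis and respiration.

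The start regions show which of these genes carry the HIF core letters in a short window. RefSeq start regions of GRCm38.p6, from 250 bases before to 50 after the start, were available for 10 members at 15 starts. ACGTG or its reverse complement was found in 9 of the 15, against 19.6% of 32851 such windows of all genes, and GCGTG in 7 of the 15, against 32.4%. Either was found in 12 of the 15, against 43.8%. The 15 windows are not independent, since some members have more than 1 start. Overlapping windows of Aldoa hold the same ACGTG site, which was counted in each. The members are known HIF targets chosen by name, with earlier results of these data known, and the difference from all genes was not tested. Both cores contain CG, and the windows of all genes were not matched to the members' windows in CG content. A palindromic CACGTG counts on both strands and may also be an E-box. The 4 windows below belong to the members with the largest falls and the largest rise, written 5′ to 3′ along the gene with every match in capitals. Ldha lies at chr7:46845554-46845853 on the plus strand, Pgk1 at chrX:106186850-106187149 on the plus strand, Pdk1 at chr2:71872974-71873273 on the plus strand, and the upstream start of Vegfa at chr17:46032328-46032627 on the minus strand.
Ldha: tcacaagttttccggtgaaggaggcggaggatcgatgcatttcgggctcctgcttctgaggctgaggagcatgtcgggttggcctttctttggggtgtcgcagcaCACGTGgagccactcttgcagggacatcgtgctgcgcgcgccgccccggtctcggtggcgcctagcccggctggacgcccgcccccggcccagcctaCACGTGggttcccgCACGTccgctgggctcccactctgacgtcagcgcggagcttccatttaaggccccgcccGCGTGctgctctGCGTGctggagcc
Pgk1: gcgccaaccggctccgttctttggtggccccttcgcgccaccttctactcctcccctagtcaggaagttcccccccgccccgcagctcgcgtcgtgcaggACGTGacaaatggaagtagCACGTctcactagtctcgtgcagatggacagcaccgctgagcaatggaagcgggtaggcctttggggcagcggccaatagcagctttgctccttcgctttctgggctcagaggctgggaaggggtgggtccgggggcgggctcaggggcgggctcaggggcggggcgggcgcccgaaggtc
Pdk1: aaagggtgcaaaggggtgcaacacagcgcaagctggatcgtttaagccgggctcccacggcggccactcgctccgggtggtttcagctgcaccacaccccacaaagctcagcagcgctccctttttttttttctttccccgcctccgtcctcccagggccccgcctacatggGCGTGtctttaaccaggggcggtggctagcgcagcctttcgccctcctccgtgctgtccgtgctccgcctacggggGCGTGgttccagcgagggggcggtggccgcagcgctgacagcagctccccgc
Vegfa: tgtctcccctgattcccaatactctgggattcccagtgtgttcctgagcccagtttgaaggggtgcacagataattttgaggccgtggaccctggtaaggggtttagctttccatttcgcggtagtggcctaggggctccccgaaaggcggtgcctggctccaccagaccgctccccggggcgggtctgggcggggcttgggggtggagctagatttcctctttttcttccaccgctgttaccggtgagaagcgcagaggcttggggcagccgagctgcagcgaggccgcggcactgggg
In the Ldha window ACGTG was matched 5 times over both strands, with 2 palindromes counted on each strand, and GCGTG 2 times. Pgk1 held 2 ACGTG matches and Pdk1 2 GCGTG matches. The other Ldha start region, at chr7:46846832-46847131, held 0 ACGTG and 2 GCGTG matches. The other Pdk1 start region, at chr2:71874654-71874953, held neither. The upstream Vegfa window held neither. The other Vegfa start region, at chr17:46025114-46025413, held 1 of each. It lies wholly inside the gene and is among the 15 windows counted above. A match describes letters in this window and shows no binding.

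Before the members' values, some facts of the libraries bear on all of them. Suz12 RNA does not check the degron, which acts on the protein (not measured here), and the log2 difference of Suz12 in Auxin against Mock was 0.09 (edgeR adjusted p = 0.349). All 10 embryonic stem cell markers were above 1 CPM in each group, and their summed level was 6280.6 to 6452.4 CPM in Mock, 7744.3 to 8323.6 CPM in Auxin and 6048.7 to 6110.6 CPM in Reintroduction. In Auxin 7 of the 10 were higher than in Mock and 2, Pou5f1 (−0.53) and Dppa5a (−1.16), were lower, beside 38.4% and 34.8% of all genes tested. In Reintroduction 2 were higher than in Mock and 4 lower, Pou5f1 and Dppa5a among them, beside 34.7% and 33.4%. The summed level of 7 primitive endoderm markers was 6 to 7.47 CPM in Mock, 22.7 to 23.6 in Auxin and 14.2 to 16 in Reintroduction. For 6 trophoblast markers it was 62.6 to 65.7, 107.6 to 118.7 and 109.6 to 115.3 CPM, carried by Eomes and Tfap2c. Among the 5 trophoblast markers tested, 3 were higher in Auxin than in Mock and 2, Eomes and Cdx2, were lower. Tfap2c was at 27.2, 86.6 and 45 CPM in Mock, Auxin and Reintroduction, and Eomes at 35.4, 25.6 and 66.9. For 6 fibroblast markers the summed level was 17.8 to 20, 39.1 to 46.4 and 37.4 to 38.8 CPM, nearly all from Thy1, with Col3a1 and Lum at 0 in Auxin. For 6 endothelial and blood markers it was 69.7 to 71.6, 172.8 to 188.7 and 71.1 to 74.8 CPM, nearly all from Pecam1, with Ptprc at 0 in Mock and Reintroduction. The part of these shifts in the results below was not tested. In bulk RNA, fewer cells of a type and less RNA per cell cannot be told apart. The libraries also differed in how counts followed exon length. For this, log2 CPM was centred on each gene's mean over the 9 libraries, so a slope is relative to the average library. Over 10177 genes the slope per doubling of length was −0.246 to −0.168 in Mock and 0.013 to 0.154 in Auxin. It was 0.083 to 0.097 in Reintroduction, and the 0.013 was that of Auxin replicate 2.

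Auxin treatment was followed by lower RNA of the glycolytic members and of Pdk1, and by higher RNA of Egln3 and Vegfa. In Auxin against Mock 7 of the 10 members fell, 2 rose and 1 was not called. All genes moved widely in this comparison: 73.2% of those tested were called at an edgeR quasi-likelihood adjusted p under 0.05, 38.4% higher and 34.8% lower. Scaled by total counts in place of TMM, 9748 genes were higher and 5662 lower, against 7996 and 7261, and the members were 2 higher and 5 lower. A call by itself therefore says little about a member. Calls with at least a 2-fold change made up 31.8% of all genes tested. Among the members Vegfa rose and Ldha, Pgk1 and Pdk1 fell by that much. The median log2 difference was −0.42 over the members and 0.05 over all genes tested. The groups did not overlap for 9 of the 10, all but Bnip3, against 74.3% of all genes tested. Egln3 lay just under the 2-fold limit, at a log2 difference of 0.95, and passed it with the length trend removed (1.08).

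**Figure D1:**
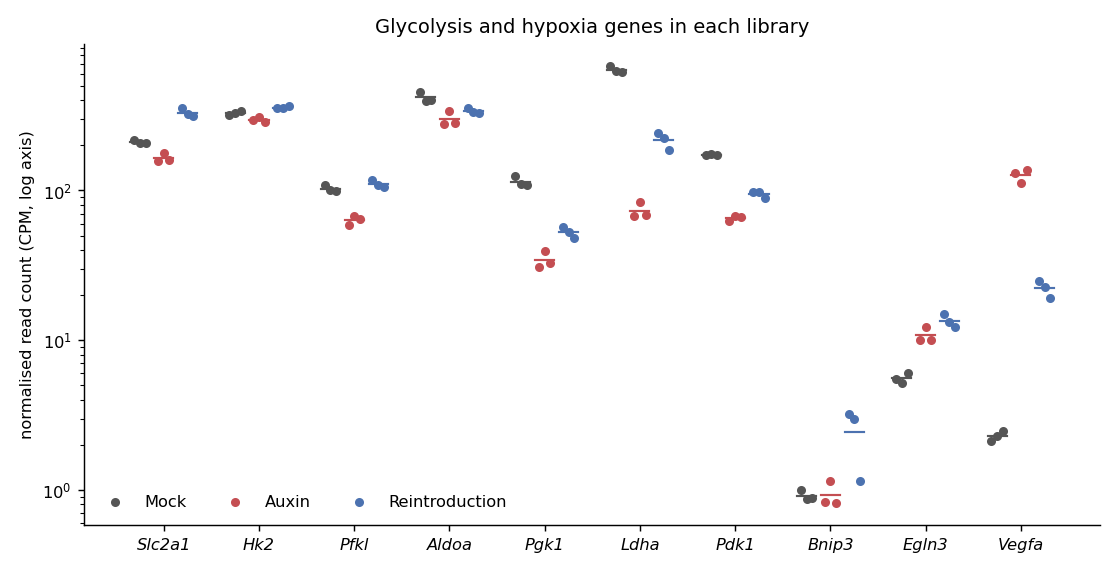
Normalised read count of each member in CPM on a log axis, with a point for each of the 3 libraries in Mock, Auxin and Reintroduction and a bar at the group mean. Ldha falls from a mean of 642.2 CPM in Mock to 73.4 in Auxin and stands at 218.5 in Reintroduction, while Vegfa goes from 2.3 to 126.6 and then 22.2.

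After 4.5 h of washout most members moved up. In Reintroduction against Auxin 8 of the 10 members rose, 1 fell and 1 was not called, where 50.9% of all genes tested were called, 25.5% higher and 25.5% lower. With scaling by total counts 4279 genes were higher and 6393 lower, against 5305 and 5308. Changes of at least 2-fold were called for 11% of all genes. They were called for 4 members, upward for Ldha, Bnip3 and Slc2a1 and downward for Vegfa. The median over the members was 0.57 and that over all genes tested was 0.00. The groups did not overlap for 8 of the 10, all but Aldoa and Egln3, against 58.2% of all genes tested. Slc2a1 lay just over the 2-fold limit, at a log2 difference of 1.01. It was under that limit with the length trend removed (0.97) and by total counts (0.93), and over it with length and GC trends removed (1.06). Compared with Mock, the Reintroduction libraries were higher for 4 members (Slc2a1, Bnip3, Egln3 and Vegfa), lower for 4 (Aldoa, Pgk1, Ldha and Pdk1) and not called for Hk2 and Pfkl. With scaling by total counts 6 members were higher than Mock and 3 lower. In that comparison 68.1% of all genes were called, 34.7% higher and 33.4% lower, and 22.4% with at least a 2-fold change. By total counts 8570 genes were higher and 5736 lower, against 7225 and 6966. At least 2-fold differences from Mock were called for 5 members, Bnip3, Egln3 and Vegfa higher and Pgk1 and Ldha lower. The median was 0.11 over the members and 0.03 over all genes, and the groups did not overlap for 9 of the 10, all but Pfkl, against 75.2% of all genes tested. The 2-fold list against Mock depended on the length trend. With that trend removed Pgk1 went from −1.13 to −0.96, under the limit, and Pdk1 from −0.87 to −1.24, over it. The 3 comparisons share libraries in pairs, so their values are not independent.

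**Figure D2:**
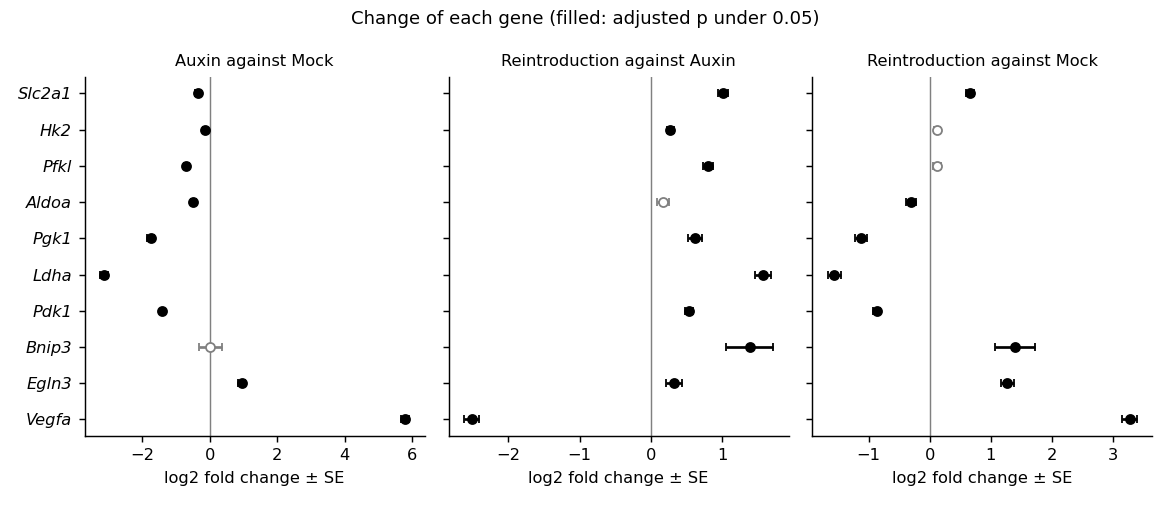
Log2 difference of each member in the 3 comparisons, with bars of 1 standard error from the edgeR fit of 9 libraries and filled points for those called. Each panel has its own scale. Auxin against Mock spans −3.13 (Ldha) to 5.79 (Vegfa), and Vegfa is the only member below 0 in Reintroduction against Auxin.

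Slc2a1 (ENSMUSG00000028645.11, chr4:119108711-119137983, mm10), the main basal glucose transporter, stood at 216.1, 208.7 and 206.2 CPM in Mock, 156.9, 178.4 and 158.8 CPM in Auxin, and 357.9, 323.0 and 314.0 in Reintroduction. The 3 groups did not overlap, and the Reintroduction libraries were the highest. The fall in Auxin was −0.35 ± 0.0671 on the log2 scale (SE, adjusted p = 0.000586, edgeR), and with scaling by total counts it was −0.14 and no longer called (adjusted p = 0.0598). After washout Slc2a1 rose by 1.01 ± 0.0677 (adjusted p = 5.33e-07), to 0.66 ± 0.0672 above Mock (adjusted p = 6.94e-06). Slc2a1 shares exon sequence with Gm12868, and reads of the pair cannot be told apart without strand.

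Hk2 (ENSMUSG00000000628.10, chr6:82725025-82774454), the inducible hexokinase, had small differences throughout. Its levels were 321.0, 327.9 and 339.6 CPM in Mock, 295.2, 307.8 and 288.4 CPM in Auxin, and 353.1, 353.4 and 366.1 in Reintroduction. The groups did not overlap, yet they lay close together. Its fall in Auxin was −0.15 ± 0.0495 (adjusted p = 0.0178, edgeR). That direction depended on scaling: with total counts the difference was 0.06, and with the length trend removed it was −0.38. The call was also lost with a filter of 1 CPM in 3 libraries (−0.08), with a fit of Mock and Auxin alone (−0.12) and without Auxin replicate 3 (−0.13). In Reintroduction, Hk2 rose by 0.27 over Auxin (adjusted p = 0.000975), and its difference from Mock, 0.12, was not called (adjusted p = 0.0535). The difference from Mock was called in 4 of 18 alternatives and ranged from −0.12 to 0.25 over all 18.

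Pfkl (ENSMUSG00000020277.9, chr10:77986947-78010083), the liver-type phosphofructokinase subunit, fell in Auxin and rose after washout. Mock libraries held 108.8, 100.4 and 98.8 CPM, Auxin libraries 58.9, 67.4 and 64.1, and Reintroduction libraries 116.7, 108.6 and 106.0. Every Auxin library lay below all others, and the Mock and Reintroduction groups overlapped. The fall was −0.69 ± 0.0659 (adjusted p = 2.2e-06, edgeR) and the rise after washout 0.80 ± 0.0661 (adjusted p = 2.53e-06). Reintroduction against Mock was 0.11 and not called (adjusted p = 0.175). It was called in 3 of 18 alternatives, at 0.24 with scaling by total counts and at 0.17 with length and GC trends removed, with or without the replicate number as a term.

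Aldoa (ENSMUSG00000030695.14, chr7:126795234-126809108), a widely expressed aldolase, fell in Auxin. Its levels were 457.3, 398.2 and 399.0 CPM in Mock, 279.8, 336.9 and 282.4 CPM in Auxin, and 353.5, 332.0 and 328.7 in Reintroduction. Auxin replicate 2 was the highest of its group and lay within the Reintroduction range. The fall in Auxin was −0.48 ± 0.0824 (adjusted p = 0.00027, edgeR). Reintroduction against Auxin, 0.17 ± 0.0823, was not called (adjusted p = 0.102). It was called in 3 of 18 alternatives, at 0.25 without Auxin replicate 2 and at 0.21 with length and GC trends removed, with or without the replicate number as a term. Against Mock, the difference of Aldoa in Reintroduction was −0.31 ± 0.0823 (adjusted p = 0.00635), a call lost with scaling by total counts (−0.18). Exon sequence is shared with Fam57b.

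Pgk1 (ENSMUSG00000062070.12, chrX:106187100-106203699), the first ATP-making enzyme of the pathway, fell in Auxin and rose in part after washout. Mock held 124.6, 111.1 and 108.1 CPM, Auxin 30.9, 39.3 and 32.6, and Reintroduction 57.1, 52.6 and 47.8. The groups were fully separated, with Reintroduction between the others. The log2 difference was −1.74 ± 0.1 in Auxin (adjusted p = 3.65e-08, edgeR), 0.61 ± 0.0984 after washout (adjusted p = 0.000348), and −1.13 ± 0.0982 for Reintroduction against Mock (adjusted p = 2.03e-06). Most counts of Pgk1 sequence stand under other gene names: the copies Pgk1-rs7 and Gm5537 share identical 75-base stretches with it and held 87.2%, 86.9% and 87.5% of the summed counts in Mock, Auxin and Reintroduction. Its level against other genes is therefore uncertain. With their counts added, the 3 differences were −1.77, 0.67 and −1.10. With the length trend removed instead, the 3 were −1.56, 0.60 and −0.96.

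Ldha (ENSMUSG00000063229.15, chr7:46841475-46855627), the lactate dehydrogenase subunit typical of glycolytic cells, had the largest fall of the members. Mock libraries held 679.8, 626.7 and 620.0 CPM, Auxin libraries 67.2, 84.4 and 68.7, and Reintroduction libraries 243.6, 225.0 and 187.0. No library of one group came near another group. The fall was −3.13 ± 0.115, or 8.74-fold (adjusted p = 1.41e-09, edgeR), rank 141 from the lowest of 20838 genes. After washout Ldha rose by 1.57 ± 0.109 (adjusted p = 6.69e-07), rank 289 from the highest, and its difference from Mock was then −1.56 ± 0.108 (adjusted p = 3.92e-07). The copies Ldha-ps2 and Gm11814 held 23.5%, 23.8% and 24.2% of the summed counts in the 3 groups, and adding them gave −3.12, 1.58 and −1.55.

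Most of the rest of the pathway fell in Auxin as well. Of 24 other glycolysis genes, which include isoforms, lactate carriers and regulators, 23 were tested. Like the lists further below, this list was chosen with earlier results of these data known and is no independent support. Among all genes tested 34.8% fell and 38.4% rose in Auxin, with a median of 0.05. In this list 16 fell, 5 rose and 2 were not called, with a median of −0.94. The smallest p-values of that list belonged to falls of Pgam2 (−2.92 ± 0.133, adjusted p = 6.11e-09, edgeR) and Eno3 (−2.30 ± 0.0868, adjusted p = 1.74e-09), the muscle forms of phosphoglycerate mutase and enolase, and of Eno1 (−1.89 ± 0.0908, adjusted p = 9.55e-09), the common enolase. The enzymes of the lower pathway, picked after their values were seen, included Tpi1 (−2.03), Gapdh (−1.15), Pgam1 (−1.56) and the pyruvate kinase Pkm (−1.56), which went from 1706.6 ± 83.4 CPM (SD, n = 3) in Mock to 577.7 ± 65.2. The 5 that rose were Slc2a3 (1.09), Pfkp (0.44), Eno2 (1.15), Pfkfb2 (1.49) and Pfkfb3 (0.47). With the length trend removed, 3 were called higher instead of 5. Tpi1 shares exon sequence with Spsb2 and Gapdh with Iffo1.

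Washout raised 13 of those 23 and lowered 5, with a median of 0.37, beside 25.5% raised and 25.5% lowered among all genes tested. Tpi1, triose phosphate isomerase, rose by 1.08 ± 0.101 (adjusted p = 6.42e-06, edgeR), and the lactate carrier Slc16a1 by 0.62 ± 0.0502 (adjusted p = 2.28e-06), while the neuronal enolase Eno2 fell (−1.26 ± 0.103, adjusted p = 2.31e-06). Gapdh, at 0.12, was not called (adjusted p = 0.299). Of all genes tested, 33.4% were lower in Reintroduction than in Mock and 34.7% higher. Against Mock, 15 of the 23 were still lower in Reintroduction and 6 were higher, with a median of −0.70. By the smallest p-values these included Eno3 (−2.21), Pgam2 (−2.12) and the muscle phosphofructokinase Pfkm (−1.14).

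**Figure D3:**
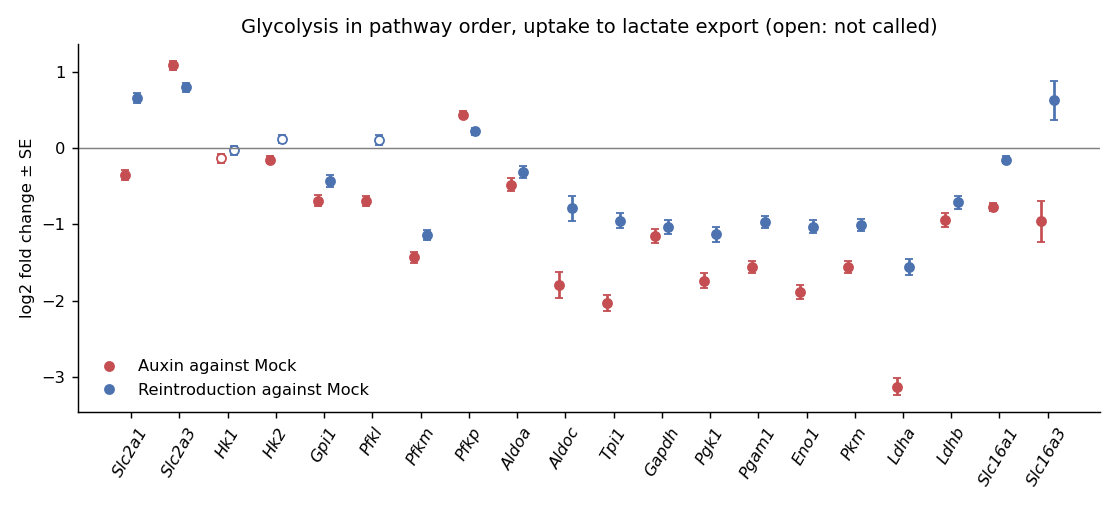
Log2 difference in Auxin against Mock and in Reintroduction against Mock for the genes of glycolysis in the order of the pathway, from glucose uptake to lactate export, with bars of 1 standard error and open points for those not called. Differences of Slc2a1, Hk2, Pfkl and Aldoa lie between −0.69 and −0.15 in Auxin, while Tpi1, Pgk1, Pgam1, Eno1, Pkm and Ldha lie at −1.56 or below. Gapdh at −1.15 and Ldhb at −0.94 lie above these, and Pfkm at −1.43 and Aldoc at −1.80 lie below the other early genes.

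The share of most members within their gene family changed between groups. Shares were computed from levels per exon length. The length trend that differs between the groups was not removed from them, so shares of genes of unlike length carry it. Counts under the names of copies of Ldha, Aldoa and Bnip3 were not added, so their shares are uncertain beyond the SD. Ldha made up 57.6 ± 0.279% (SD, n = 3) of Ldha and Ldhb in Mock, 23 ± 0.371% in Auxin and 43 ± 2.34% in Reintroduction. Ldhb, the other lactate dehydrogenase subunit, also fell in Auxin (−0.94, adjusted p = 2.15e-06, edgeR), and less than Ldha. Slc2a1 was 24.7 ± 0.758% of Slc2a1 and Slc2a3 in Mock, 10.8 ± 0.407% in Auxin and 23 ± 1.5% in Reintroduction. Slc2a3 (GLUT3), a high-affinity glucose transporter, rose in Auxin from 1323.3 ± 26.8 to 2810.9 ± 156.0 CPM (log2 difference 1.09 ± 0.0577, adjusted p = 1.99e-08, edgeR).

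Pfkl was 46.6 ± 1% of the 3 phosphofructokinase genes in Mock, 34.5 ± 1.52% in Auxin and 50.3 ± 0.696% in Reintroduction. Pdk1 fell from 62.2 ± 0.923% of the 4 pyruvate dehydrogenase kinase genes to 39.1 ± 1.09% in Auxin, and stood at 46.5 ± 0.758% in Reintroduction. Hk2 was 85.2%, 85% and 86.4% of Hk1 and Hk2 in Mock, Auxin and Reintroduction. Aldoa was 97.7%, 99.1% and 98.3% of Aldoa and Aldoc. These shares were described by group and not tested.

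**Figure D4:**
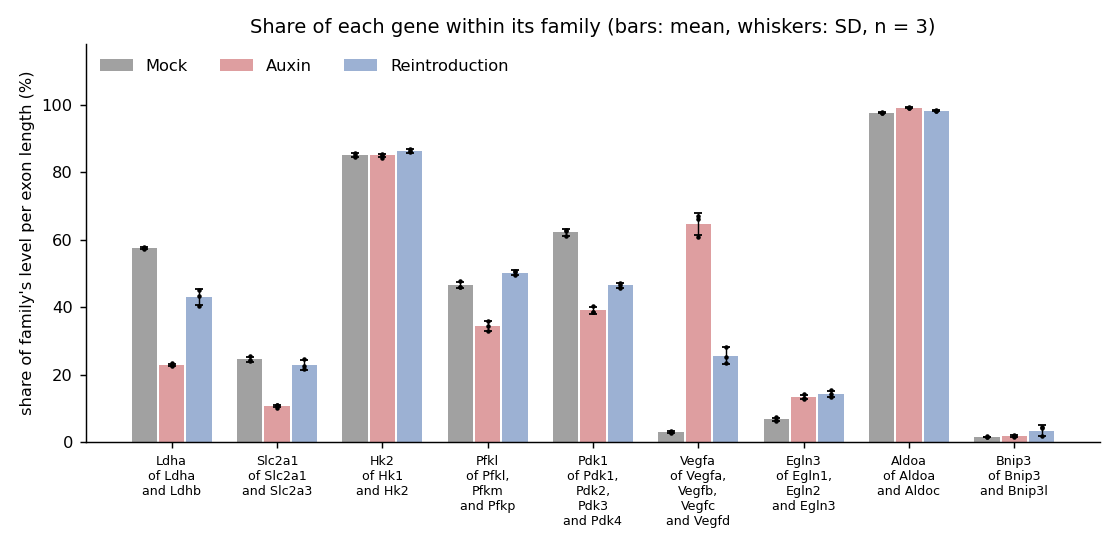
Share of each member in the summed level per exon length of its gene family, in percent, with bars for the mean of 3 libraries, whiskers for 1 SD and points for libraries. Pgk1 has no family here. Vegfa takes 3.11% of the 4 VEGF ligands in Mock and 64.7% in Auxin, and Ldha goes from 57.6% to 23%.

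Among the hypoxia-response members Pdk1 (ENSMUSG00000006494.11, chr2:71873224-71903858) fell. It stood at 171.4, 174.9 and 172.9 CPM in Mock, 63, 67.6 and 66.5 CPM in Auxin, and 97.6, 97.9 and 89.4 in Reintroduction. Spread within each group was small and the groups were far apart. The log2 difference was −1.40 ± 0.0541 in Auxin (adjusted p = 2.08e-09, edgeR), 0.53 ± 0.0535 after washout (adjusted p = 1.13e-05) and −0.87 ± 0.0535 against Mock (adjusted p = 1.64e-07). With the length trend removed these were −1.78, 0.53 and −1.24. In Auxin 38.4% of all genes tested rose and 34.8% fell. Of 11 other genes of pyruvate entry into mitochondria, 5 rose, 4 fell and 2 were not called (7 and 1 with scaling by total counts). By the smallest p-values these were rises of the kinase Pdk4 (1.12) and of the pyruvate carrier subunit Mpc1 (1.05), and a fall of Dlat (−0.39), a subunit of pyruvate dehydrogenase. After washout 3 of the 11 rose, Pdp1 (0.79), Pdp2 (0.53) and Pdk4 (0.32), and 1 fell, beside 25.5% and 25.5% of all genes tested. The Pdp genes encode the phosphatases that oppose Pdk1. Against Mock, 6 of the 11 were higher and 3 lower (8 and 2 by total counts), beside 34.7% and 33.4% of all genes tested. The pyruvate entry genes higher than Mock included Pdk4 (1.45), Mpc1 and Pdp1 (1.08). Mpc1 shares exon sequence with 4930506C21Rik.

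Bnip3 (ENSMUSG00000078566.8, chr7:138890836-138909519) was near the lower limit of the tested genes, with 56 to 103 counts per library in Mock and Auxin. Its levels were 1, 0.869 and 0.881 CPM in Mock, 0.829, 1.14 and 0.818 CPM in Auxin, and 3.2, 2.98 and 1.15 in Reintroduction. Mock and Auxin overlapped, and Reintroduction replicate 3 lay just above the highest Auxin library. The difference in Auxin, 0.02 ± 0.345, was not called (adjusted p = 0.968, edgeR). Bnip3 rose after washout by 1.38 ± 0.328 (adjusted p = 0.00475), and by 1.39 ± 0.325 against Mock (adjusted p = 0.00274). With 1 library left out at a time these ranged from 1.09 to 1.72 and from 1.10 to 1.73, all called. Its copies Gm16439 and Gm9419 held 43.5%, 51.5% and 48.8% of the summed counts, and it overlaps Gm45507. Its relative Bnip3l was at 92.5 ± 1.5 CPM in Mock and rose by 0.50 after washout (adjusted p = 7.92e-06).

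Egln3 (ENSMUSG00000035105.5, chr12:54178981-54203860), a hydroxylase that is itself induced by HIF, rose in Auxin and did not return. Its levels were 5.53, 5.17 and 6.06 CPM in Mock, 9.98, 12.3 and 10.1 CPM in Auxin, and 15, 13.3 and 12.2 in Reintroduction. Mock lay below every other library, and the Auxin and Reintroduction groups overlapped by 1 library. The rise in Auxin was 0.95 ± 0.11 (adjusted p = 1.12e-05, edgeR), and Reintroduction was 1.27 ± 0.11 above Mock (adjusted p = 1.9e-06). The step from Auxin to Reintroduction, 0.32 ± 0.107, was called (adjusted p = 0.0269) but lost with scaling by total counts (0.24) and without Auxin replicate 1 (0.25), Auxin replicate 3 (0.28), Reintroduction replicate 1 (0.22) or Reintroduction replicate 2 (0.33). Egln3 made up 6.86 ± 0.517% of the 3 Egln genes in Mock, 13.5 ± 0.679% in Auxin and 14.4 ± 0.945% in Reintroduction.

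Vegfa (ENSMUSG00000023951.16, chr17:46016993-46032377) had the largest change of the members. Its levels were 2.14, 2.31 and 2.46 CPM in Mock, 131.0, 112.2 and 136.6 CPM in Auxin, and 25, 22.5 and 19.1 in Reintroduction. Each group was far from the others, and Reintroduction lay between. The rise was 5.79 ± 0.127, or 55.2-fold (adjusted p = 9.52e-11, edgeR), rank 49 from the highest of 20838 genes. After washout Vegfa fell by 2.51 ± 0.106 (adjusted p = 1.71e-08), rank 168 from the lowest, and left it 3.27 ± 0.12, or 9.68-fold, above Mock (adjusted p = 5.7e-09). Its share of the 4 VEGF ligand genes was 3.11 ± 0.319% in Mock, 64.7 ± 3.39% in Auxin and 25.7 ± 2.56% in Reintroduction.

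Other VEGF ligands and receptors moved less. In Auxin 38.4% of all genes tested rose and 34.8% fell. Of the 9 VEGF ligand and receptor genes 5 rose, 1 fell and 3 were not called (6 and 0 with scaling by total counts). The smallest p-values included those of the coreceptor Nrp1 (2.33 ± 0.376, adjusted p = 0.00017, edgeR) and the receptor Flt4 (1.79 ± 0.182, adjusted p = 3.85e-06), both at or under 1.4 CPM in Auxin, and of the coreceptor Nrp2 (0.57). The Nrp2 difference was −0.02 with the length trend removed. After washout 2 of the 9 rose and 3 fell (1 and 4 by total counts), beside 25.5% and 25.5% of all genes tested. The VEGF genes called included Nrp2 (0.61), Flt4 (−0.62) and the ligand Vegfb (−0.37). Against Mock 5 of the 9 were higher and 2 lower in Reintroduction, beside 34.7% and 33.4% of all genes tested. In that comparison Nrp2 was at 1.17, Vegfc at 0.57 and Vegfb at −0.72. Nrp1 shares exon sequence with Mir1903.

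Genes that sense oxygen and carry the HIF response rose for the most part in Auxin. In Auxin 8 of 10 rose, 1 fell (Egln2) and 1 was not called (Hif3a), with a median of 0.60. All genes tested had a median of 0.05, with 38.4% called higher and 34.8% lower. By total counts 9 of the 10 oxygen-sensing genes rose and 0 fell, and with the length trend removed 7 rose and 2 fell. The smallest p-values were those of the HIF partner Arnt2 (1.71), the HIF brake Cited2 (0.80) and Epas1 (0.70), which encodes HIF-2 alpha. Hif1a, which encodes HIF-1 alpha and was picked after its values were seen, rose from 90.8 ± 5.27 to 167.0 ± 24.2 CPM (0.88 ± 0.0935, adjusted p = 5.66e-06, edgeR). RNA levels of these genes do not measure the HIF proteins, whose amount is set largely by their breakdown.

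After washout 2 of the 10 rose and 5 fell, beside 25.5% and 25.5% of all genes tested. Epas1 rose by 1.00 ± 0.0686 (adjusted p = 6.31e-07, edgeR) and Egln1, the main oxygen-sensing hydroxylase, by 0.61 ± 0.0704 (adjusted p = 2.99e-05), while Vhl, the ubiquitin ligase subunit that binds hydroxylated HIF, fell (−0.74 ± 0.0634, adjusted p = 3.36e-06). Hif1a, at −0.03, was not called. Against Mock 6 of the 10 were higher and 2 lower (5 and 5 with the length trend removed). Of all genes tested, 34.7% were higher and 33.4% lower. The oxygen-sensing genes higher than Mock included Epas1 (1.71), Egln1 (1.30) and Hif1a (0.85). Arnt2 shares exon sequence with Gm30873 and Hif1a with Gm15283.

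Other genes known to be induced by hypoxia moved in both directions. Of 22 listed, 20 were tested, with a median of 0.77 in Auxin. Of all genes tested, 38.4% were higher and 34.8% lower. In the list 12 rose, 4 fell and 4 were not called. The smallest p-values were those of Stc2, a secreted glycoprotein, which rose by 6.16 ± 0.159 (adjusted p = 1.64e-10, edgeR), of Ddit4, an inhibitor of mTORC1 signalling, with a rise of 4.81 ± 0.185 (adjusted p = 2.01e-09), and of Bhlhe40, a transcriptional repressor, with a rise of 2.89 ± 0.0755 (adjusted p = 1.76e-10). The 4 that fell were Mxi1 (−1.33), Ankrd37 (−0.93), Fam162a (−0.75) and Bnip3l (−0.22). Bhlhe40 shares exon sequence with 0610040F04Rik.

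After washout 7 of these 20 rose, 7 fell and 6 were not called, beside 25.5% higher and 25.5% lower among all genes tested. Ddit4 went from 311.3 ± 29.7 CPM in Auxin to 12.4 ± 3.67 (−4.65, adjusted p = 1.07e-08, edgeR), against 11.1 ± 0.701 in Mock, and Stc2 from 101.2 ± 6.63 to 6.39 ± 1.34 (−3.98, adjusted p = 4.2e-09). Ak4, a mitochondrial adenylate kinase, was at 91.8 ± 1.58 CPM in Mock and 93.4 ± 7.91 in Auxin and rose to 220.8 ± 3.71 (1.24 ± 0.0617, adjusted p = 5.48e-08). Against Mock 11 of the 20 were higher and 2 lower in Reintroduction, beside 34.7% and 33.4% of all genes tested. The listed genes higher than Mock included Bhlhe40 (1.80), the collagen prolyl hydroxylase P4ha1 (1.37), Ak4 (1.27) and Stc2 (2.18). The Ddit4 difference from Mock, 0.16, was not called (adjusted p = 0.413).

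**Figure D5:**
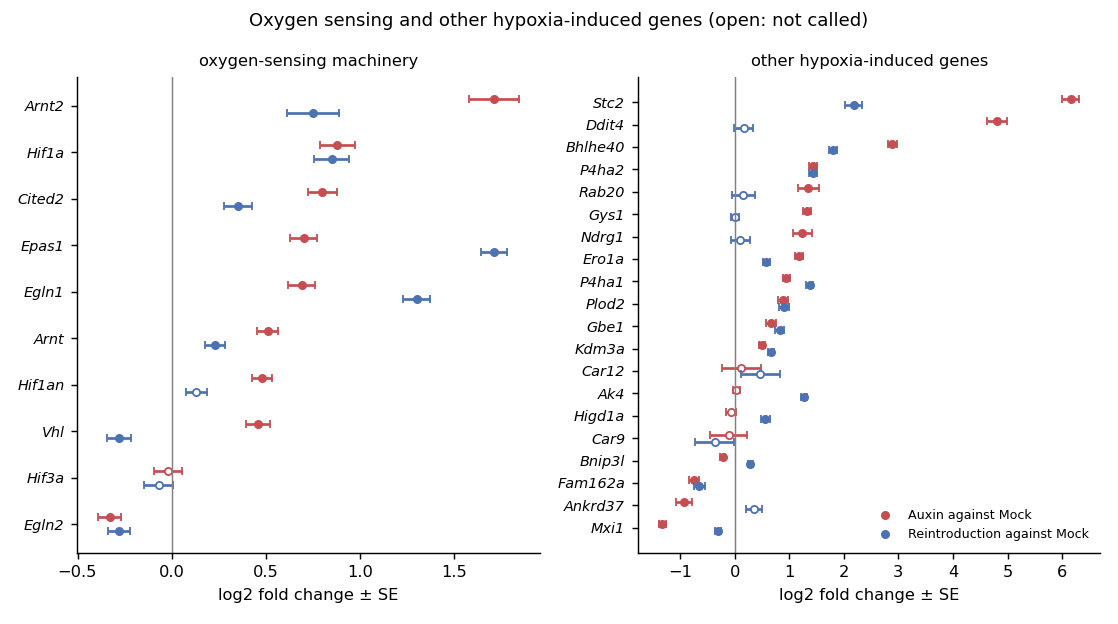
Log2 difference from Mock in Auxin and in Reintroduction, with bars of 1 standard error, for 10 oxygen-sensing genes and 20 other hypoxia-induced genes, with open points for those not called. Epas1 stands at 0.70 in Auxin and 1.71 in Reintroduction, while Ddit4 stands at 4.81 and 0.16.

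The members differed in how far 4.5 h of washout took them back. As a share of the Auxin change on the log2 scale, Vegfa moved back by 43.4%, Ldha by 50.3%, Pdk1 by 38% and Pgk1 by 35.3%. Aldoa was at 36.1%, from a step that was not called. Pfkl was at 115%, or 149% with scaling by total counts. Slc2a1 was at 286% and stood above its Mock level. Its Auxin change is small and was not called by total counts (−0.14, with a rise of 0.93 after washout), and with length and GC trends removed the share was 410%. For Hk2 the share depends on a change whose sign turned with scaling: it was 179%, or 69.1% with the length trend removed, and has no value by total counts. Egln3 was at −33.7%, or −20.9% by total counts, which means that it moved further from Mock. Bnip3 has no such value, since its Auxin change was not called. Both terms of each ratio use the Auxin libraries, and no error was fitted to it. The order of the members also depends on the log2 scale. In Mock, Auxin and Reintroduction, mean CPM was 2.3, 126.6 and 22.2 for Vegfa and 642.2, 73.4 and 218.5 for Ldha. On the CPM scale Vegfa moved back by a larger share than Ldha.

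Per exon length, the order of the members changed with the groups. In Mock, Ldha was highest at 194.0 ± 9.9 RPKM (SD, n = 3), then Aldoa at 111.2 ± 9.01, Slc2a1 at 60 ± 1.47, Hk2 at 55.2 ± 1.58 and Pgk1 at 51.1 ± 3.92. Pfkl at 23.4 ± 1.21 and Pdk1 at 22.3 ± 0.227 lay within their spread of each other, and Hk2 and Pgk1 were likewise close. Egln3 at 2.1 ± 0.168, Vegfa at 0.536 ± 0.0381 and Bnip3 at 0.405 ± 0.0318 were low. In Auxin the order was Aldoa at 79.7 ± 8.58 RPKM, Hk2 at 49.8 ± 1.65, Slc2a1 at 47 ± 3.39, Vegfa at 29.5 ± 2.98, Ldha at 22.2 ± 2.88, Pgk1 at 15.3 ± 1.99, Pfkl at 14.4 ± 0.977, Pdk1 at 8.45 ± 0.311, Egln3 at 4.06 ± 0.499 and Bnip3 at 0.41 ± 0.081. There Hk2 and Slc2a1, and Pgk1 and Pfkl, were within their spread of each other. In Reintroduction the order was Slc2a1 at 94.6 ± 6.61 RPKM, Aldoa at 89.9 ± 3.58, Ldha at 66 ± 8.71, Hk2 at 59.9 ± 1.24, Pfkl at 25.1 ± 1.27, Pgk1 at 23.4 ± 2.08, Pdk1 at 12.2 ± 0.618, Vegfa at 5.17 ± 0.691, Egln3 at 5.07 ± 0.544 and Bnip3 at 1.08 ± 0.497. Slc2a1 and Aldoa, Ldha and Hk2, Pfkl and Pgk1, and Vegfa and Egln3 were pairs within their spread. The length trend that differs between the groups was not removed from these levels. Counts under the names of copies make the levels of Pgk1, Aldoa, Ldha and Bnip3 uncertain. The copies Aldoart1 and Gm5276 held 42.4%, 42.7% and 43.3% of the counts summed with Aldoa, and adding them gave −0.47, 0.19 and −0.28 in the 3 comparisons.

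For each member the gene with the most similar course was sought among 12310 genes (12311 for Bnip3), by the root mean square difference of log2 CPM over 9 libraries, each centred on its own mean. Pgk1 was closest to its copy Gm5537 (0.0586) and Ldha to its copy Ldha-ps2 (0.0741). Hk2 was closest to Ube2o (0.0326), Aldoa to Ppp2r1a (0.0366), Pdk1 to Zscan10 (0.0459), Pfkl to Pja1 (0.0514), Slc2a1 to Rab6b (0.0743) and Egln3 to Gm7329 (0.0907). Vegfa was closest to Dsc2 (0.281) and Bnip3 to Fabp5 (0.357). The measure grows with a member's own spread over the libraries, which was 2.36 for Vegfa, 1.29 for Ldha, 0.718 for Bnip3 and 0.114 for Hk2, so these values do not rank the members. Dsc2, a desmosomal cadherin, differed by 5.50 in Auxin against Mock and by −1.88 in Reintroduction against Auxin, where Vegfa differed by 5.79 and −2.51. These values describe 9 libraries and carry no test.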

How the data were processed

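Polyadenylated RNA of 9 libraries was analysed. The authors deposited raw read counts per gene; per the file headers these came from featureCounts 2.0.6 over exons of an mm10 annotation, in paired-end mode and without a strand setting. Mates were not joined by that command: in Mock replicate 1, 3926 genes held an even count from 2 to 10 and 2861 an odd count from 1 to 9, so counts overstate independent fragments. The submitters' processing notes also name Trim Galore 0.6.10, FastQC 0.12.1, Bowtie2 2.5.3 and SAMtools 1.20, with no role. How reads with several matches were placed is not given in the sources used here.

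From the counts, 1 edgeR 4.0.16 quasi-likelihood fit (R 4.3.3) was made over all 9 libraries with group as its only term, TMM factors (0.905 to 1.08), filterByExpr (20838 of 48440 genes kept) and Benjamini-Hochberg adjustment across every tested gene. Calls needed an adjusted p under 0.05. Tests were two-sided, standard errors were derived from the F statistic, and the common biological coefficient of variation was 9.15%. The fit was also run on simulated data in which few genes changed. That setting cannot check the calls here, where 50.9% to 73.2% of genes were called. CPM and RPKM were computed from the counts with TMM library sizes. Counts cover 44341283 to 113931419 mates per library, which sets the counting error, and replicate error was taken from 3 libraries a group.

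The members and gene lists were chosen with earlier results of these data known, so no list is independent support. Of the other genes, those named with values are the 3 of each list with the smallest p among called genes in each comparison, and others were chosen after their values were seen. Copies of members were found as genes elsewhere that share an identical 75-base stretch of GENCODE M21 transcript. Promoter windows came from RefSeq (GRCm38.p6). Alternatives were DESeq2 1.42.0 (size factors and its Wald test), total counts, 2 other filters, fits of 2 groups, a replicate block, removal of length and GC trends, halved counts and leaving out each library; adding counts of copies and a 2-fold minimum were chosen after seeing the data. The labels name no batch or date and do not say that a replicate number marks shared cultures.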

Additional observations from a re-analysis of the deposited data

How the results depend on the processing

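Scaling by total counts moved the median of all genes from 0.05 to 0.26 in Auxin against Mock, from 0.00 to −0.08 in Reintroduction against Auxin and from 0.03 to 0.16 in Reintroduction against Mock. Under 18 alternatives for each of 10 members, 170 of 180 values kept their direction and call in Auxin against Mock, 172 of 180 in Reintroduction against Auxin and 171 of 180 in Reintroduction against Mock. For the 15 other genes per comparison with the smallest p in their lists these were 266 of 269, 270 of 270 and 270 of 270. Further genes named in the text were not followed one by one. Hk2 changed sign in Auxin against Mock with total counts (0.06) and in Reintroduction against Mock with the length trend removed (−0.12). Nrp2 did so in Auxin against Mock with the length trend removed (−0.02). Bnip3, not called in Auxin against Mock, was at −0.01 with DESeq2 size factors and with the DESeq2 Wald test, and between −0.17 and 0.10 with 1 library left out. With a fold change of at least 2, 1 member was higher and 3 were lower in Auxin against Mock (6625 genes called), 3 were higher and 1 lower in Reintroduction against Auxin (2289 genes), and 3 were higher and 2 lower in Reintroduction against Mock (4664 genes). Near the 2-fold limit, Egln3, Slc2a1, Pgk1 and Pdk1 each crossed it in 1 comparison with the length trend removed. The cause of these shifts was not tested, except that the 2-fold rule keeps fewer genes by construction. Same-numbered libraries correlated at −0.172 to 0.055 and others at −0.177 to 0.239. No pairing by number was seen, though so few libraries cannot exclude it. With the replicate block 14808, 9829 and 13639 genes were called in the 3 comparisons, against 15257, 10613 and 14191 without it, and the members' counts were 2 higher and 7 lower, 8 and 1, and 4 and 4. Depth limits Bnip3 most, at 56 to 255 counts per library.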
